A study of Mus musculus with 4 samples.

Results

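Large intestinal (LI) Treg cells were compared between KO and control mice for the secreted and enzymatic molecules through which Treg cells act on their neighbours. The group was chosen by gene symbol and held 9 of the 53379 genes in the deposited table: *Il10*, *Ebi3*, *Il12a*, *Fgl2*, *Entpd1*, *Nt5e*, *Lgals1*, *Lgals3* and *Adora2a*. Of these, *Lgals1* and *Lgals3* were 1.47-fold and 1.48-fold higher in KO libraries and *Nt5e* was at 0.77 times the control level, with no overlap between the groups, but none of the 3 differences passed adjustment over all genes tested. The 95% intervals of *Il10*, *Ebi3*, *Fgl2*, *Entpd1* and *Adora2a* included no change, and *Il12a* was close to 0 in every library.

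Regulatory T (Treg) cells restrain other immune cells partly through what they release and partly through enzymes on their surface. Interleukin-10, encoded by *Il10*, is an inhibitory cytokine that intestinal Treg cells are known for. *Ebi3* and *Il12a* encode the subunits of interleukin-35, and *Fgl2* a secreted fibrinogen-like protein that binds an inhibitory Fc receptor. CD39 (*Entpd1*) cuts extracellular ATP and ADP to AMP, CD73 (*Nt5e*) turns AMP into adenosine, and an adenosine receptor (*Adora2a*) senses adenosine. Galectin-1 (*Lgals1*) and galectin-3 (*Lgals3*) are lectins that bind galactose-containing glycans on other cells.

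There were 2 control and 2 KO RNA-seq libraries of CD3+CD4+YFP+ cells from the large intestine of adult C57BL/6 mice at steady state, each made from 2 to 3 pooled mice. All mice carried Cre and YFP under control of *Foxp3* (Foxp3-YFPcre), and no agent was given. The labels give the control genotype as Setd24flox/+Foxp3-YFPcre, with 1 floxed copy of the H3K36 methyltransferase gene *Setd2*, so the controls also lose that copy in Treg cells. The KO genotype is given as Setd24flox/floxFoxp3-YFPcre.

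The values are FPKM (fragments per kilobase of transcript, scaled to the mapped fragments of the library), which set genes of different length on one scale. Their sums differed by at most 0.0098% between libraries and the values at each of the 5000 highest ranks by at most 0.173%, with 2172 of these ranks at 1 value in all 4, so among expressed genes a value is in effect a rank within its library. Between 28426 and 33957 genes were listed at 0, and the depth is unknown. *Setd2* itself was listed at 38.19 and 27.36 in control 1 and 2 and at 26.33 and 36.30 in KO 1 and 2. These values cover the whole gene and not the deleted part, and so do not check the labels. *Foxp3*, which defines the sorted cells, was low, at 2.62, 5.61, 4.66 and 3.05 in the same order of libraries, while *Cd3e* lay between 148.95 and 186.61 and *Il2ra* between 152.14 and 183.66. RNA of other cells was present: the summed FPKM of 8 macrophage and monocyte markers was 271, 238, 268 and 294, with *Lyz2* between 127.83 and 167.97, and *Jchain* of plasma cells lay between 111.97 and 168.57. *Fcgr1* of the macrophage list was at most 0.53. Of 6 epithelial markers, *Epcam* was listed at 28.65 and 30.81 in control and at 19.58 and 21.13 in KO, *Krt18* at 4.23 and 4.52 in control and at 7.22 and 7.18 in KO, and the other 4 at 0.49 at most. Of the CD8 T cell markers, *Cd8a* was at most 0.35 and *Cd8b1* lay between 2.08 and 2.96. In such bulk libraries, fewer cells of a type and less RNA per cell cannot be told apart.

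The 9 genes spanned a wide range of levels. *Il10* had the highest mean FPKM over the 4 libraries, 1080, above 98.9% of the 7639 genes tested. It was followed by *Lgals1* (472), *Nt5e* (174), *Fgl2* (154), *Lgals3* (67.7), *Adora2a* (54.4), *Ebi3* (34.0), *Entpd1* (22.9) and *Il12a* (0.207). The ranges over the 4 libraries overlapped for *Nt5e* and *Fgl2* and for *Lgals3* and *Adora2a*, so the order within these pairs is not resolved, while the other neighbours were separate. *Entpd1*, the first enzyme of the adenosine pathway, stood near the middle of the tested genes, with a level above 49.9% of them.

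**Figure D1:**
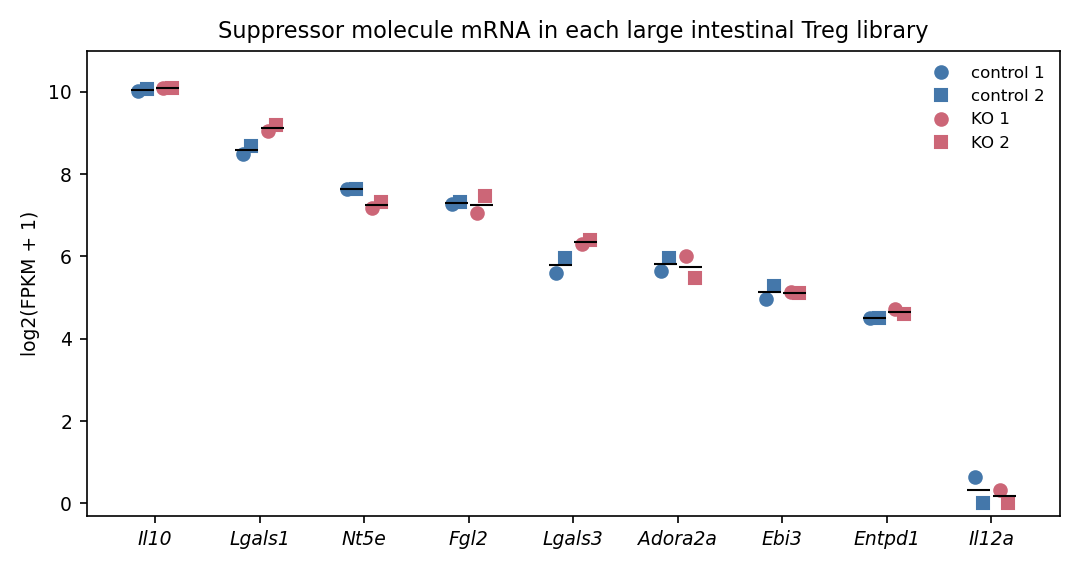
Level of each of the 9 genes as log2(FPKM + 1) in the 2 control libraries (blue) and the 2 KO libraries (red), with circles for replicate 1, squares for replicate 2 and a line at each group mean. *Lgals1* and *Lgals3* lie higher and *Nt5e* lower in both KO libraries, and *Il12a* lies near 0 in all 4.

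KO was tested against control with limma on log2(FPKM + 1) over the 7639 protein-coding genes whose mean FPKM exceeded 5 in at least 1 group, a filter that 8 of the 9 genes met. The log2 fold changes given are of KO relative to control after adding 1, which understates the change of low genes. For a single gene fitted on all 4 libraries, each is given with its standard error (SE). No member was called at an adjusted p below 0.05 in limma with Benjamini-Hochberg adjustment, a threshold passed by 0.314% of the tested genes in the higher and 0.275% in the lower direction. The study's own threshold was an unadjusted p below 0.05, at which KO exceeded control for 2 members and control exceeded KO for 1, beside 8.61% and 7.57% of all tested genes. Both KO libraries lay above both controls for 4 of the 8 members and below for 1, compared with 24.2% and 22.9% of all genes. The median log2 fold change was 0.02 over the 8 members and -0.0039 over all genes tested. The smallest p of an exact permutation test with 2 libraries in a group is 0.333, and limma reaches lower values by pooling variance across genes.

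**Figure D2:**
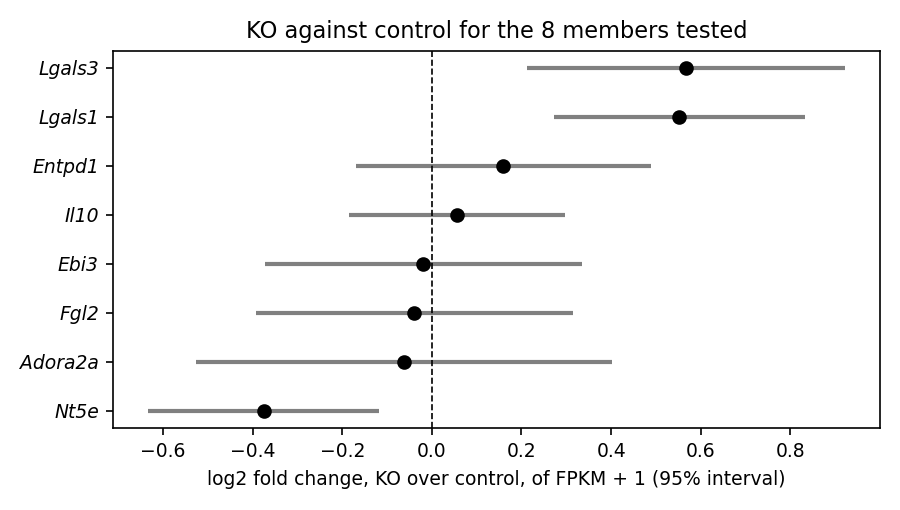
log2 fold change of FPKM + 1, KO over control, for the 8 members tested, with the 95% interval from limma as a bar and a dashed line at no difference. The intervals of *Lgals1*, *Lgals3* and *Nt5e* leave out 0 and the other 5 include it.

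Among the cytokines, *Il10* (ENSMUSG00000016529, chromosome 1 of GRCm38, 131019845 to 131024974) was listed at an FPKM of 1040.15 in control 1 and 1077.12 in control 2, and at 1100.55 in both KO libraries. Both KO values were above both controls, by a small margin. The equal KO values are the same rank, 90th of all genes in both libraries, on the common distribution, and do not mean that the pools had no spread. On the log2 scale KO exceeded control by 0.06 with an SE of 0.10 (limma, adjusted p = 0.846), and the 95% interval of the fold change ran from 0.879 to 1.23.

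*Ebi3* (ENSMUSG00000003206, chromosome 17, 55952640 to 55957022), the subunit that interleukin-35 shares with interleukin-27, was listed at 30.48 and 38.23 in control 1 and 2, and at 34.06 and 33.32 in KO 1 and 2. Both KO libraries lay between the controls. Its log2 fold change of -0.02 had an SE of 0.15 (limma, adjusted p = 0.972), with an interval of the fold change from 0.773 to 1.26. The exons of *Ebi3* share 270 bases with the antisense gene *Gm16712*, which was listed at 2.11 at most, and the strand setting of the counting is not given in the sources used here.

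The partner of *Ebi3*, *Il12a* (ENSMUSG00000027776, chromosome 3, 68690644 to 68698547), was listed at 0.56 and 0.01 in the controls and at 0.26 and 0 in KO 1 and 2. These values did not meet the filter and overlapped between the groups. The subunits of interleukin-35 were therefore far apart in mRNA, with a mean of *Ebi3* of 34.4 ± 5.48 (SD, n = 2) in control beside 0.285 ± 0.389 for *Il12a*. Without the filter, limma gave *Il12a* an adjusted p of 0.860.

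*Fgl2* (ENSMUSG00000039899, chromosome 5, 21372642 to 21378374) was listed at 152.73 and 158.61 in control 1 and 2, and at 131.09 and 174.91 in KO 1 and 2. The KO libraries lay on either side of both controls. With all 4 libraries its log2 fold change was -0.04, SE 0.15 (limma, adjusted p = 0.936), and it ran from -0.25 without KO 2 to 0.17 without KO 1. *Fgl2* lies inside *Ccdc146* on the other strand, which was listed at 0.2 at most. Its inhibitory receptor *Fcgr2b* averaged 5.62 ± 2.39 (SD, n = 2) in control libraries and 7.03 ± 0.665 in KO libraries, with overlapping groups.

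In the adenosine pathway the estimates for the 2 enzymes had opposite signs, but the interval of *Entpd1* included no change. *Entpd1* (ENSMUSG00000048120, chromosome 19, 40612366 to 40741602) was listed at 21.67 and 21.51 in control 1 and 2, and at 25.39 and 23.11 in KO 1 and 2. Both KO values were above both controls, but the log2 fold change of 0.16 had an SE of 0.14 (limma, adjusted p = 0.625), and the interval of the fold change ran from 0.889 to 1.40. An intron of *Entpd1* holds the processed pseudogene *Gm8783*, on the same strand, which shares no exon base with it. *Gm8783* was listed at 59.59 and 47.75 in control 1 and 2, and at 30.81 and 47.65 in KO 1 and 2. Also inside *Entpd1* on this strand, the pseudogene *Gm16027* was listed at 0.18 at most and *AC166063.1* had no FPKM.

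*Nt5e* (ENSMUSG00000032420, chromosome 9, 88327197 to 88372092) was listed at 196.91 in both control libraries, at 144.38 in KO 1 and at 159.14 in KO 2. Both KO libraries were below the controls, whose equal values are the same rank, 622nd of all genes. In limma its log2 fold change was -0.38, SE 0.11 (unadjusted p = 0.0104, adjusted p = 0.180), and the interval of the fold change ran from 0.645 to 0.922. Leaving out KO 1 raised the unadjusted p to 0.0896 in limma. *Nt5e* lies 22.2 Mb from *Setd2* on the chromosome that carries the floxed allele, where 17.3% of the 440 genes tested were at an unadjusted p below 0.05, beside 16.1% on the other chromosomes. The T cell marker list also differed in *Ikzf2*, which encodes Helios, at 118 ± 3.66 in control and 91.2 ± 10.1 in KO (unadjusted p = 0.0183, adjusted p = 0.222 from limma), and in the opposite direction in *Ctla4*, at 1647 ± 76.0 in control and 2235 ± 106 in KO (unadjusted p = 0.00491, adjusted p = 0.132 from limma). The part of these differences in the *Nt5e* value was not tested.

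Within a library, *Nt5e* exceeded *Entpd1* by a ratio of FPKM of 9.09 in control 1 and 9.15 in control 2. This ratio was 5.69 in KO 1 and 6.89 in KO 2, below both controls. The ratio of *Nt5e* to *Adora2a*, in the same pathway, overlapped between the groups. It was 3.98 and 3.23 in control 1 and 2, and 2.27 and 3.66 in KO 1 and 2. A change in either gene moves such a ratio. With 2 libraries in each group the exact permutation test of a ratio cannot go below p = 0.333.

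The adenosine sensor *Adora2a* (ENSMUSG00000020178, chromosome 10, 75316877 to 75334784) was listed at 49.48 and 61.02 in control 1 and 2, and at 63.51 and 43.49 in KO 1 and 2. The highest and the lowest value were both KO libraries. Its log2 fold change of -0.06 had the widest error of the members, an SE of 0.20 (limma, adjusted p = 0.920), with an interval of the fold change from 0.694 to 1.32. Of the 3 other adenosine receptors, *Adora2b* was listed at 1.04 at most, *Adora3* at 0.62 at most and *Adora1* at 0.12 at most, so *Adora2a* was the adenosine receptor gene with the highest FPKM in each of the 4 libraries.

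The galectins had the largest log2 fold changes of the members. *Lgals1* (ENSMUSG00000068220, chromosome 15, 78926725 to 78930465) was listed at 356.01 and 408.73 in control 1 and 2, and at 531.99 and 589.31 in KO 1 and 2. The groups did not overlap, and the gap between them was wider than the gap within either. KO exceeded control by 0.55 on the log2 scale, SE 0.12 (limma, unadjusted p = 0.00215, adjusted p = 0.0945), and the interval of the fold change ran from 1.21 to 1.78. By its p *Lgals1* ranked 174th of the 7639 genes. Stromal and endothelial cells also express *Lgals1*, and of 5 markers of these cells *Pecam1*, which leukocytes also express, was listed at 34.65 and 36.26 in control and at 49.25 and 42.72 in KO. The other 4, *Col1a1* and *Col3a1* among them, were at 0.68 or less in every library.

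*Lgals3* (ENSMUSG00000050335, chromosome 14, 47367751 to 47386160) was listed at 47.46 and 61.79 in control 1 and 2, and at 78.38 and 83.17 in KO 1 and 2. Here too both KO libraries were above both controls, of which control 1 was the lower. KO exceeded control by 0.57 on the log2 scale, SE 0.15 (limma, unadjusted p = 0.00655, adjusted p = 0.147), and the interval of the fold change ran from 1.16 to 1.89. The log2 difference was 0.38 without control 1 and 0.75 without control 2. Macrophages and epithelial cells also express *Lgals3*. The summed macrophage markers given above, of which *Lyz2* was the largest part, overlapped between the groups. All 6 macrophage markers tested had a log2 fold change above 0, with a median of 0.23, beside -0.0039 over all genes. *Cd14* (32.4 and 36.83 in control, 40.2 and 41.96 in KO) and *Adgre1* (4.38 and 3.66 in control, 5.6 and 6.24 in KO) were higher in both KO libraries, and none of the 6 was at an unadjusted p below 0.05 in limma. Outside this list, the myeloid and NK cell gene *Fcgr3* was higher in both KO libraries (unadjusted p = 0.0105 in limma), while *Fcgr2b* overlapped. Of the epithelial markers, *Krt18* was higher in KO (unadjusted p = 0.0207, adjusted p = 0.224 from limma). *Epcam* was lower in KO (unadjusted p = 0.00644, adjusted p = 0.147 from limma). The part of these cells in the galectin values was not tested.

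The proportion of the 2 galectins overlapped between the groups. The ratio of *Lgals1* to *Lgals3* FPKM was 7.5 and 6.61 in control 1 and 2 and 6.79 and 7.09 in KO 1 and 2. By contrast, the ratio of *Il10* to *Lgals1* was 2.92 and 2.64 in the controls and 2.07 and 1.87 in KO, so the 2 most abundant members stood closer together in both KO libraries. As *Il10* lay between 1040.15 and 1100.55 in all libraries, this ratio largely restates the *Lgals1* difference and is no second result. The ratio of *Il10* to *Ebi3* overlapped between the groups, at 34.1 and 28.2 in control 1 and 2 and 32.3 and 33.0 in KO 1 and 2.

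**Figure D3:**
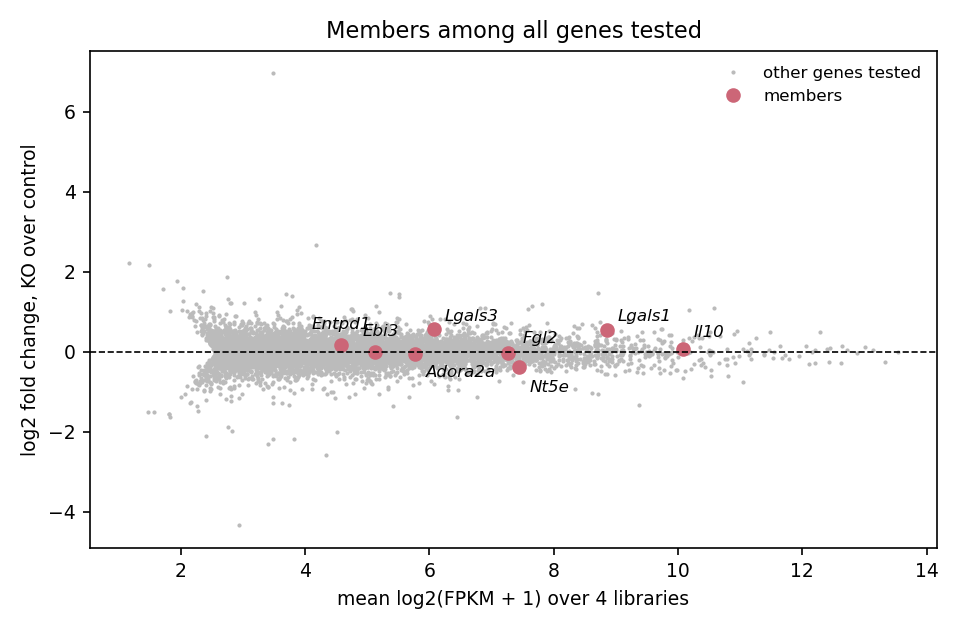
Each of the 7639 genes tested by its mean log2(FPKM + 1) over 4 libraries and its log2 fold change, KO over control, with the 8 members tested in red and a dashed line at no difference. *Lgals1*, *Lgals3* and *Nt5e* lie toward the edge of the cloud and the other 5 near its middle.

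The genes that act with these molecules were read from the same fit. Of 14 genes of the interleukin-10 and interleukin-35 axis, 10 were tested and none was called at an adjusted p below 0.05 in limma. At an unadjusted p below 0.05, 8.61% of all tested genes were higher and 7.57% lower in KO. In this list KO was the higher group for 1 gene and the lower for 0. That gene was *Il10rb*, the receptor chain that interleukin-10 shares with other cytokines, at 36.8 ± 1.45 in control and 48.0 ± 2.60 in KO (SD, n = 2, adjusted p = 0.222 from limma). The ligand-binding chain *Il10ra* was at 42.7 ± 8.0 and 35.8 ± 5.15, with overlapping groups. *Il6st*, a receptor chain used by interleukin-35, was at 58.3 ± 13.8 in control and 41.9 ± 8.51 in KO (adjusted p = 0.322 from limma), and the other chain *Il12rb2* was listed at 3.13 at most. *Maf* and *Prdm1*, transcription factors known to drive *Il10*, had log2 fold changes of -0.0046 and -0.0085.

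Of 28 genes listed around extracellular ATP and adenosine, including relatives with other roles, 12 were tested. None was called at an adjusted p below 0.05 in limma. At an unadjusted p below 0.05, 3 were higher and 0 lower in KO, beside 8.61% and 7.57% of all tested genes. The median log2 fold change of the list was 0.13 beside -0.0039 over all genes. The ATP-gated channel *P2rx4* was at 29.7 ± 1.39 in control and 41.5 ± 2.31 in KO (adjusted p = 0.165 from limma). *Cd38*, an ectoenzyme that breaks down NAD, was at 13.5 ± 0.544 and 18.9 ± 1.07 (adjusted p = 0.222), and *Enpp1*, an ectoenzyme that yields AMP from ATP, at 15.4 ± 2.73 and 20.9 ± 2.09 (adjusted p = 0.300). *Ada*, which degrades adenosine, was at 11.8 ± 1.26 and 12.6 ± 1.52 with overlapping groups.

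Of 16 galectins and galectin partners, 12 were tested, and none was called at an adjusted p below 0.05 in limma. At an unadjusted p below 0.05, 1 was higher and 2 were lower in KO, beside 8.61% and 7.57% of all tested genes. The list had a median of 0.15 on the log2 scale. The higher gene was *Lgalsl*, a galectin-like gene, at 4.49 ± 0.297 in control and 7.85 ± 0.70 in KO (adjusted p = 0.195 from limma). The lower genes were *Lgals3bp*, which encodes a secreted glycoprotein that galectin-3 binds, at 41.5 ± 3.29 and 30.3 ± 2.55 (adjusted p = 0.206), and *Mgat5*, an enzyme that builds branched glycans bound by galectin-3, at 11.6 ± 1.39 and 8.21 ± 0.453 (adjusted p = 0.292). The other galectins tested were *Lgals9*, at 108 ± 8.41 in control and 125 ± 18.1 in KO, *Lgals7*, at 29.4 ± 5.18 and 32.9 ± 7.62, *Lgals8*, at 19.1 ± 0.0778 and 23.0 ± 1.92, and *Lgals4*, at 12.6 ± 2.19 and 17.4 ± 3.87. Their adjusted p-values from limma lay between 0.365 and 0.776, and the groups did not overlap for *Lgals8* and *Lgals4*. Both KO libraries lay above both controls for 24.2% of all tested genes. Of the 3 genes listed with *Fgl2*, *Fcgr3*, an activating Fc receptor of myeloid and NK cells, was at 10.8 ± 2.5 in control and 18.3 ± 3.23 in KO (unadjusted p = 0.0105, adjusted p = 0.180), and *Fgl1* was listed at 0.05 at most.

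**Figure D4:**
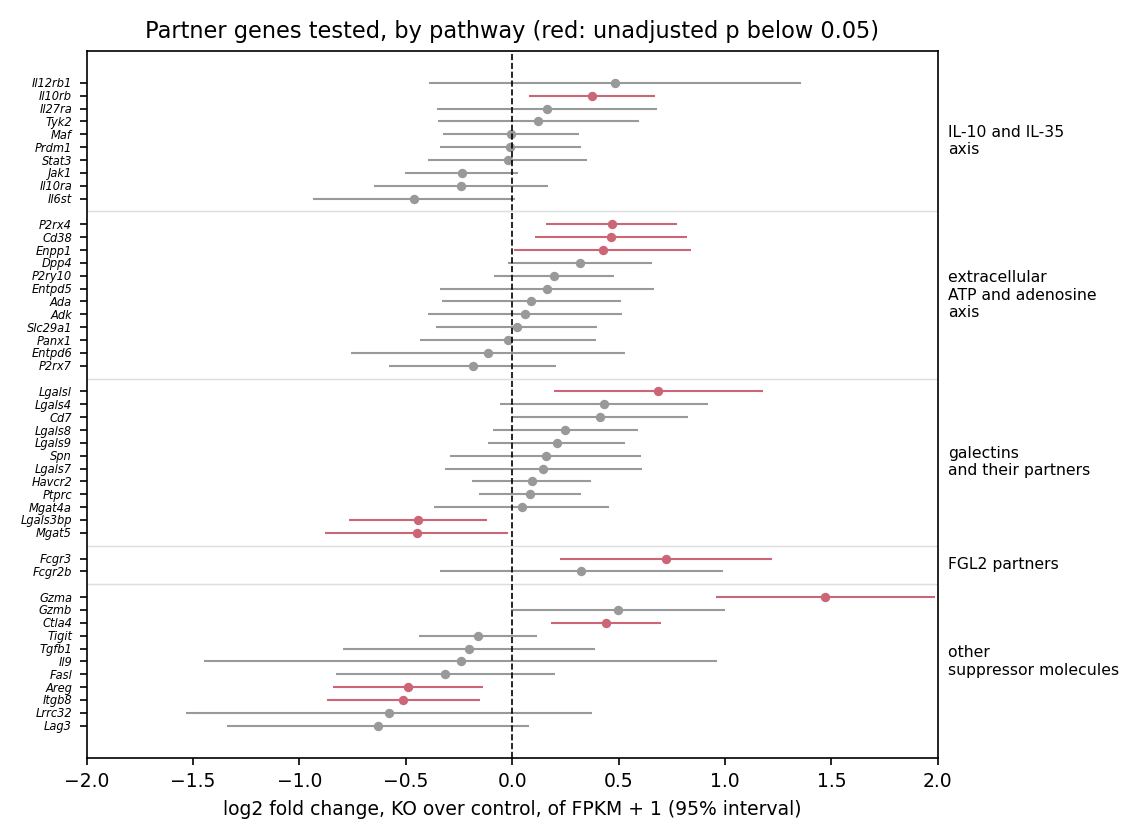
log2 fold change of FPKM + 1, KO over control, for the partner genes tested, grouped by list, with the 95% interval from limma as a bar, red where the unadjusted p is below 0.05 and grey otherwise. In the adenosine group 3 genes are red and higher in KO, and in the galectin group 1 is higher and 2 are lower. Of all tested genes, 8.61% were higher and 7.57% lower at this threshold.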

How the data were processed

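Poly(A) RNA of sorted LI Treg cells was sequenced in paired reads of 150 bp. The authors mapped reads to GRCm38 with STAR v2.5, quantified genes with RSEM v1.2 and deposited FPKM for 53379 genes in 4 columns. The step that gave the columns a common distribution is not given in the sources used here. No depth could be recovered, so no counting interval was computed.

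Gene types and positions came from a later GENCODE annotation of GRCm38, in which 53274 gene identifiers were found. As the unit does not allow a count test, log2(FPKM + 1) was modelled with limma 3.58.1 (R 4.3.3), using no covariate and a trended empirical Bayes step. The fit was also run on simulated data, as a check of the code only. Those data did not copy the common distribution of the libraries. Tables and figures used Python 3.11.15, pandas 2.3.3 and matplotlib 3.10.9. No gene of another name had a transcript of at least 90% identity over at least 100 bases to a member, other than *Gm16712*.

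The members and lists were chosen with earlier results of these data known. Named were the members, partner genes at an unadjusted p below 0.05 with separate groups, fixed direct partners, overlapping genes, markers and the 3 genes most like the member of smallest p. *Maf* and *Prdm1*, *Adora1* and *Adora3*, *Fcgr2b* and *Fgl1* were named after their values were seen. *Lgals4* and *Lgals7* were named as the remaining galectins tested, also outside these rules.

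Pools are the replicates. The paper states that the pooled mice were littermates, but nothing says which control and KO pools were collected together, so the fit has no block. After removing group means, control 1 and KO 1 deviated in opposite directions (r = -0.305 across genes). This correlation cannot show whether the pools were paired, under these numbers or others. Alternatives were other pseudocounts (0.1 and 5), a lower filter (mean FPKM of at least 1), no filter, all gene types, libraries rescaled to a total of 1000000 or median-centred, no trend, the replicate number as a block, and each library left out.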

Additional observations from a re-analysis of the deposited data

How the results depend on the processing

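Over 13 other settings the number of members called at an adjusted p below 0.05 stayed at 0 in limma, with 2 or 3 members at an unadjusted p below 0.05. The adjusted p lay between 0.0817 and 0.546 for *Lgals1*, between 0.0910 and 0.588 for *Lgals3* and between 0.178 and 0.561 for *Nt5e*. Over all genes, the main 45 calls at an adjusted p below 0.05 became 27 with a mean FPKM of at least 1, 0 with no filter (1946 at an unadjusted p below 0.05, beside 1236), 13 with all gene types and 3 without a trend. They ranged from 2 without KO 1, and 3 without KO 2, to 43 without control 2, and the unadjusted calls from 644 without KO 2 to 1247 without control 1. A block for the replicate number left 27 genes called, and 796 at an unadjusted p below 0.05, with no change in a member's call. With the crossed pairing of control 1 with KO 2, chosen after seeing the data, 465 genes and 2 members were called, and 1991 genes at an unadjusted p below 0.05. With 1 library left out, the lone library is assumed to vary like the others, and the log2 fold change ran from -0.18 to 0.14 for *Ebi3*, from -0.25 to 0.17 for *Fgl2* and from -0.33 to 0.21 for *Adora2a*. The cause of these moves was not tested, and an unknown depth limits every value.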

Other observations

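Among 12 other suppressor molecules of Treg cells, 11 were tested. At an adjusted p below 0.05 in limma 1 was called, higher in KO, beside 0.314% of all tested genes in that direction. This was *Gzma*, which encodes the serine protease granzyme A, listed at 218.91 and 290.35 in control 1 and 2 and at 563.13 and 872.34 in KO 1 and 2. *Gzma* rose by 1.47 on the log2 scale, SE 0.22 (limma, adjusted p = 0.0475), just below the threshold. With no filter on FPKM 0 genes were called, so this call was lost there. Its call under the other settings was not examined. At an unadjusted p below 0.05, 2 of the 11 were higher and 2 lower in KO, beside 8.61% and 7.57% of all tested genes. The median log2 fold change of the 11 was -0.24. The other higher gene was *Ctla4*, the inhibitory receptor of CD80 and CD86. The lower genes were *Itgb8*, an integrin subunit that activates latent TGF-beta, at 17.6 ± 0.339 in control and 12.1 ± 0.290 in KO (SD, n = 2, adjusted p = 0.189 from limma), and the growth factor gene *Areg*.

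Of the genes tested, *Golm1*, *Padi2* and *Tlcd2* had the patterns most like that of *Lgals1*, the member with the smallest p. Their root mean square differences from it in centred log2(FPKM + 1) over the 4 libraries were 0.0175, 0.0295 and 0.0312. *Golm1* was listed at 5.5 and 6.24 in control 1 and 2 and at 8.61 and 9.47 in KO 1 and 2, far below the level of *Lgals1*. With 4 libraries, a likeness of this size is a description only.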
